A study of Mus musculus with 7 samples.

Results

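Colon from mice given dextran sulfate sodium (DSS), a sugar polymer that damages the lining of the colon when mice drink it and so produces colitis, was compared with ileum from untreated mice. The comparison used 5 of the 7 arrays of the series, 3 from DSS colon and 2 from control ileum, chosen by tissue and treatment as labelled. The 2 control colon arrays entered the same fit and are given beside each gene as the starting level of the colon. The question was which defence and absorption genes of the ileum the inflamed colon reached, and which differences between the regions remained.

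RNA came from mice 3 months old on a mixed C57Bl6/129Sv background, either wild type (WT) or lacking Atg4b (KO), a protease that processes the LC3 and GABARAP proteins of autophagosomes. The control ileum gave 1 WT and 1 KO array, the control colon also 1 of each, and the DSS colon 1 WT and 2 KO arrays. DSS was given for 7 days and followed by 3 days of water. Total RNA of the tissue was hybridised to 1-colour Affymetrix gene arrays, 1 array per sample, and the labels do not say whether every array is a separate animal, so a p-value here reflects the variation among these arrays and nothing broader. Values below are log2 intensities. They are listed as WT then KO for ileum and for control colon, and as KO replicate 1, KO replicate 2 and WT for DSS colon. A difference is DSS colon minus control ileum with the genotype as a covariate, ± its standard error (SE) in limma, and a gene is called when its Benjamini-Hochberg adjusted p over 19938 genes is below 0.05. Since the tissue was not separated, fewer cells of a type and less RNA per cell cannot be told apart.

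The ileum is the last stretch of the small intestine. Its enterocytes digest and take up fat, peptides, sugars and cobalamin, and they recover bile acids from the gut lumen, while Paneth cells at its crypt bases secrete defensins and lysozyme. The colon has few of these functions: its surface cells absorb salt and water behind thick mucus, and its regional identity is marked by the posterior HOX genes. Inflammation can switch on antimicrobial and interferon-driven genes in colonic epithelium that the ileum expresses in health.

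Atg4b itself read 7.35 to 7.72 on the 3 WT arrays and 5.39 to 5.45 on the 4 KO arrays. Array medians of intensity lay between 121.4 and 126.45. Markers of sex separated the groups compared here. Xist, transcribed from the inactive X chromosome of females, read 12.16 to 12.55 in the 3 DSS colons and 5.28 and 5.52 in the ileum, and the Y-linked Eif2s3y read 4.28 to 4.39 against 9.39 and 9.77. The labels give females and males in both groups, so the labels and the markers disagree, and sex as measured by these genes cannot be told apart from the comparison. Of 4 measured sex markers, 1 was higher and 3 were lower in DSS colon than in control colon, and 0 were called between ileum and control colon. The same limit therefore holds for every rise or fall against control colon given below. KO DSS replicate 1 stood apart from the other DSS arrays for some genes of several lists, and its value is given separately for genes where it does.

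Of 19938 genes, 1258 were higher in DSS colon than in control ileum, which is 6.31%, and 1400 were lower, which is 7.02%. A further 16308 genes, 81.8%, were not called and had a 95% interval inside 1 log2 unit on either side of 0, and these are described below as within 2-fold. Of all 19938 genes, 4126 read below the lower quartile of all gene values, 5.78, on every array. For genes this dim, lying within 2-fold does not show expression in both tissues. Called differences beyond 2-fold numbered 466 higher and 675 lower, and beyond 16-fold 22 higher and 62 lower. The median difference over all genes was 0.04. Leaving out the KO ileum array gave 396 higher and 424 lower genes, leaving out the WT ileum array 461 and 804, leaving out KO DSS replicate 2 gave 697 and 844, and omitting the WT DSS array 555 and 671. In the same fit, DSS colon exceeded control colon for 1436 genes, 7.20%, and fell below it for 684, 3.43%, while ileum exceeded control colon for 1184 genes, 5.94%, and lay below it for 642, 3.22%. These side comparisons share arrays with the main comparison, so each is given by its own values only. They depend on single arrays: the DSS against control colon counts were 156 higher and 60 lower without the WT control colon array, 100 and 83 without the KO control, 368 and 158 without the WT DSS array, 540 and 260 omitting KO DSS replicate 2, and 2178 and 1371 omitting KO DSS replicate 1. Ileum exceeded control colon for 384 to 1509 genes and lay below it for 236 to 909 with any single array left out, the lowest counts without the KO and the WT control colon array and the highest without KO DSS replicate 1.

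Most measured genes of ileal absorption were lower in DSS colon than in ileum. Fat uptake and export genes, brush-border genes, nutrient carriers and bile acid genes had median differences of -2.81, -1.81, -1.52 and -1.40 log2 units in turn. With dim genes left out, which kept 23 of the 29 brush-border genes, their median was -2.99. Between DSS and control colon the median differences of these 4 lists were 0.05, -0.13, -0.10 and -0.06.

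Sucrase-isomaltase (Sis), the brush-border enzyme that splits sucrose, read 12.71 and 13.23 in ileum, 4.67 and 4.82 in control colon and 4.72, 4.58 and 4.52 in DSS colon. No colon array came near the ileum, and the difference was -8.40 ± 0.13 (adjusted p = 1.46e-06, limma). The 5 colon arrays read below the lower quartile of all gene values, 5.78, and no detection call is at hand, so for Sis and for other genes this dim the size of a difference is that of the deposited values, with no measured floor beneath it. The apical bile acid carrier Slc10a2 read 11.49 and 11.28 in ileum, 5.72 and 5.35 in control colon and 6.06, 6.33 and 5.45 in DSS colon, a difference of -5.46 ± 0.27 (adjusted p = 9.33e-05). TTTATNG is a motif of the CDX type, named for the intestinal homeobox factors. Promoters on 1 chromosome were left out of the choice of sequences. Among the remaining brush-border and bile acid genes whose upstream sequence holds TTTATNG, Sis and Slc10a2 have the largest differences, so their promoters are shown. Each is the 250 bases before the gene start in the RefSeq table for GRCm38.p6, written 5′ to 3′ on the gene's strand, with the matches on either strand in capitals: Sis on chr3:72967864-72968113 (minus strand), with 1 match starting 52 bases before the gene, and Slc10a2 on chr8:5105288-5105537 (minus strand), with 3 matches starting 175, 62 and 52 bases before it.
Sis: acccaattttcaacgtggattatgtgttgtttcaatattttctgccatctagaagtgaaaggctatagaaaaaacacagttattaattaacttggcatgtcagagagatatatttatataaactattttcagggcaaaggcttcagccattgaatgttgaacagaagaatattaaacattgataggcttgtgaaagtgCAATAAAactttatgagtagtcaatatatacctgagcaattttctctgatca
Slc10a2: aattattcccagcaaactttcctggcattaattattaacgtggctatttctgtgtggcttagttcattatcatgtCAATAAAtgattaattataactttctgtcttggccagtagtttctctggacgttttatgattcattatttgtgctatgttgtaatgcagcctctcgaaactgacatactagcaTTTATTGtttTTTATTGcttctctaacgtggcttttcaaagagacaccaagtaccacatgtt
This motif was held by 9.81% of 32851 promoters of the same length and by 9.68% of the 15614 tested genes with a promoter in the table. Counted by gene, it was held by 7 of the 26 fat absorption genes with a promoter and by 6 of 26 brush-border genes. It was held by 4 of 36 nutrient carriers and by 2 of 14 bile acid genes. It was also held by 8 of 24 interferon-response genes, the highest share of these lists, by 5 of 27 colon surface genes and by 3 of 28 inducible defence genes. A match is a description of the letters only.

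Of 33 measured genes of fat absorption, 28 were lower in DSS colon than in ileum, 0 were higher, 4 lay within 2-fold and 1 had a wider interval. Without the KO ileum array 19 were lower. Apoa1, the main protein of high-density lipoprotein, read 13.57 and 13.78 in ileum, 7.05 and 7.22 in control colon and 7.02, 6.81 and 6.96 in DSS colon, a difference of -6.76 ± 0.12 (adjusted p = 1.46e-06). All 5 colon arrays lay within a narrow band far below both ileum arrays. Npc1l1, the cholesterol uptake protein targeted by ezetimibe, was lower by -5.85 ± 0.10, and Mttp, which loads lipid onto apolipoprotein B, by -4.79 ± 0.12. Fabp2, the intestinal fatty acid binding protein, was lower by -4.55 ± 0.79 (adjusted p = 0.0138), with 10.68 on KO DSS replicate 1 against 7.78 and 7.73 on the other DSS arrays and 13.01 and 13.25 in ileum. That call was lost without either ileum array or the WT DSS array (adjusted p = 0.0667 to 0.102). The 4 genes within 2-fold included Plin2, which coats lipid droplets (0.24 ± 0.13), and Abca1, which exports cholesterol (-0.04 ± 0.18).

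Of 29 brush-border genes, which include structural proteins as well as enzymes, 23 were lower, 0 were higher and 6 lay within 2-fold. Leaving out the KO ileum array reduced the 23 to 15. Naaladl1, a peptidase of the ileal brush border, read 12.98 and 13.06 in ileum, 7.75 and 7.59 in control colon and 5.63, 5.93 and 5.88 in DSS colon. It was lower than in ileum by -7.20 ± 0.13 and also fell against control colon, by 1.84 log2 units (adjusted p = 0.00133). The aminopeptidases Enpep and Xpnpep2 were lower by -5.72 ± 0.41 and -5.70 ± 0.49, and Enpep read 8.02 on KO DSS replicate 1 against 6.77 and 6.64 on the other DSS arrays. Alpi, intestinal alkaline phosphatase, which dephosphorylates bacterial lipopolysaccharide, read 11.66 and 11.88 in ileum and 8.83, 6.21 and 6.17 in DSS colon. KO DSS replicate 1 was again the highest, and the difference of -4.82 ± 0.72 (adjusted p = 0.00802) was no longer called without the WT or the KO ileum array (adjusted p = 0.068 and 0.072). Lct, lactase, was dim and within 2-fold, at 6.56 and 6.30 in ileum and 6.10 to 6.53 in DSS colon.

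Of 44 nutrient carriers, 32 were lower, 2 were higher, 8 lay within 2-fold and 2 had wider intervals; without the KO ileum array 21 were lower. Cubn, the receptor for cobalamin bound to intrinsic factor, read 11.90 and 12.01 in ileum, 5.12 and 5.10 in control colon and 5.23, 4.97 and 5.10 in DSS colon (-6.86 ± 0.12, adjusted p = 1.46e-06). The neutral amino acid carrier Slc6a19 differed by -6.36 ± 0.11 and the sulfate carrier Slc13a1 by -6.36 ± 0.53. On KO DSS replicate 1 Slc13a1 read 7.44, against 5.53 and 5.62 on the other DSS arrays and 12.51 and 12.44 in ileum. Slc34a2, a phosphate carrier, was lower than in ileum by -6.11 ± 0.33 and fell by 2.42 log2 units against control colon, where it read 9.17 and 8.42 (adjusted p = 0.00995; 0.0913 and 0.0555 without the WT and the KO control colon array). Slc9a3, the sodium-proton exchanger, and Slc40a1, the iron exporter ferroportin, were the 2 higher genes, at 2.00 ± 0.42 and 2.18 ± 0.50, and both calls were lost without the KO ileum array (adjusted p = 0.218 and 0.0969) and without either control colon array (0.0617 for Slc9a3 and 0.0744 for Slc40a1). Slc9a3 read 11.45 on KO DSS replicate 1 against 10.02 and 9.78 on the other DSS arrays. It was also lost without the WT ileum array or the WT DSS array (0.115 and 0.0521), and Slc40a1 without KO DSS replicate 2 (0.0892).

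Of 18 bile acid genes, 14 were lower, 1 was higher, 2 lay within 2-fold and 1 had a wider interval. Fabp6, which binds bile acids inside ileal enterocytes, read 12.30 and 12.78 in ileum, 5.17 and 5.22 in control colon and 5.22, 5.39 and 5.38 in DSS colon (-7.22 ± 0.15, adjusted p = 2.92e-06). Malrd1, a regulator of the ileal hormone FGF15, was lower by -6.39 ± 0.29, and Slc51a, a subunit of the basolateral bile acid exporter, by -6.16 ± 0.24. The higher gene was the exporter Abcc4 (0.96 ± 0.12, adjusted p = 0.00392).

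**Figure D1:**
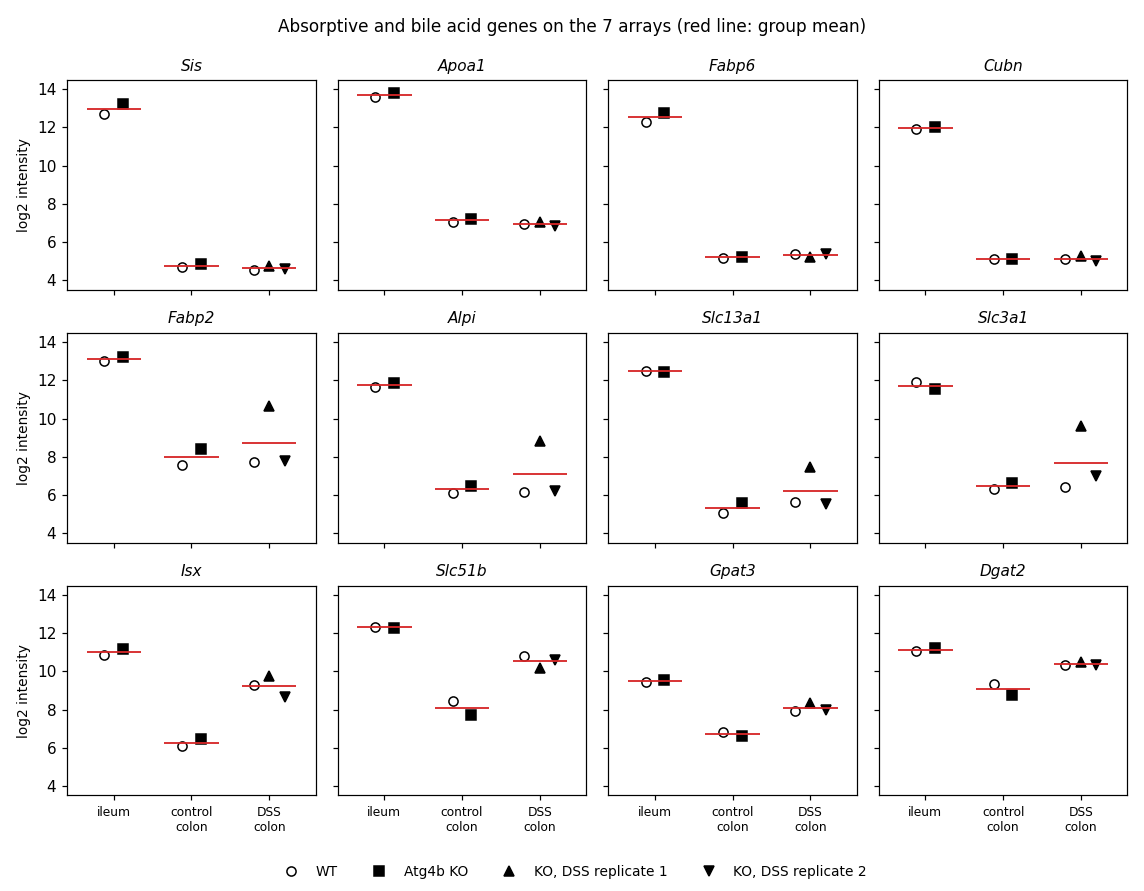
Log2 intensity (vertical axis) of 12 ileal absorption genes in control ileum, control colon and DSS colon; each marker is 1 array (circle WT, square KO, upward triangle KO DSS replicate 1, downward triangle KO DSS replicate 2) and the red line is the group mean. Sis, Apoa1 and Fabp6 in DSS colon lie with control colon, while Slc51b and Isx lie between control colon and ileum, and KO DSS replicate 1 is the highest DSS array for Fabp2 and Alpi.

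A few absorptive genes moved part of the way. They were chosen after their values were seen, and all but Slc51b lose a call when single arrays are left out. Isx, an intestinal homeobox factor that represses vitamin A uptake genes, read 10.88 and 11.18 in ileum, 6.09 and 6.46 in control colon and 9.74, 8.65 and 9.28 in DSS colon. It rose by 2.93 log2 units over control colon (adjusted p = 0.00458) and stayed 1.83 below ileum (-1.83 ± 0.31, adjusted p = 0.0128). The rise was not called without the WT or the KO control colon array (adjusted p = 0.072 and 0.0682), nor the difference from ileum without the WT or the KO ileum array (0.0729 and 0.138). Slc51b, the partner of Slc51a in the bile acid exporter, read 12.32 and 12.30 in ileum, 8.44 and 7.70 in control colon and 10.20, 10.61 and 10.81 in DSS colon, so it rose by 2.53 over control colon (adjusted p = 0.00198) and remained at -1.71 ± 0.19 against ileum. The exporter's other subunit, Slc51a, read 6.21, 5.43 and 5.53 in DSS colon and 5.66 and 5.86 in control colon. Gpat3 and Dgat2, enzymes of triglyceride synthesis, rose by 1.37 and 1.36 over control colon and were lower than in ileum by -1.41 ± 0.16 and -0.72 ± 0.17. Their rises were not called without the KO control colon array (adjusted p = 0.0809 and 0.0615), nor their differences from ileum without the KO ileum array (0.0507 and 0.36), and for Dgat2 also without the WT ileum array, KO DSS replicate 2 or the WT DSS array (0.093 to 0.198). Nr1h4, the bile acid receptor FXR, rose by 1.16 over control colon and was lower than in ileum by -0.81 ± 0.17, the former lost without either control colon array or the WT DSS array (adjusted p = 0.0647 to 0.127) and the latter without any array but the 2 of KO DSS colon (0.0561 to 0.24).

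Markers of fat tissue were also lower in DSS colon than in ileum. Of 13 measured adipocyte markers, 7 were lower, 1 was higher and 5 had wider intervals, and their mean log2 value was 9.60 and 9.47 in ileum, 8.97 and 7.47 in control colon and 8.10, 7.16 and 7.09 in DSS colon. Their summed intensity ran from 19287 to 19489 in ileum and from 3495 to 6071 in DSS colon, and no marker was listed at 0. The count of 7 was 2 without the KO ileum array, 4 without the WT ileum array, KO DSS replicate 2 or the WT DSS array; omitting KO DSS replicate 1 gave 11. Adiponectin (Adipoq) read 9.66 and 9.45 in ileum and 7.05, 6.03 and 6.54 in DSS colon. The part of fat tissue in the difference of the fat absorption list was not tested.

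Some defence genes of the ileum stayed far below the ileal level in DSS colon, and others reached or passed it. Of 13 measured Paneth cell genes, 6 were lower than in ileum, 1 was higher, 2 lay within 2-fold and 4 had wider intervals, with a median difference of -2.19. That median became -0.76 without the KO ileum array, with 5 genes lower, and -2.88 without the WT ileum array, with 8 lower. The alpha-defensin gene Defa24 read 12.44 and 13.34 in ileum, 4.29 and 4.10 in control colon and 4.16, 4.15 and 4.22 in DSS colon. The difference was -8.74 ± 0.24 (adjusted p = 9.06e-06), with every colon array below the lower quartile of all gene values, so its exact size carries the limit given for Sis. Alpha-defensin genes are near-identical copies and their probes may cross-hybridise, so the identity of the single gene is uncertain. Lyz1, Paneth cell lysozyme, was lower by -5.92 ± 0.10 and the lectin Itln1 by -5.69 ± 0.19. Mmp7, which activates alpha-defensins, read 11.12 and 11.88 in ileum and 7.58, 8.76 and 7.04 in DSS colon (-3.81 ± 0.42), and its values of 6.58 and 6.31 in control colon were not called different from DSS colon (adjusted p = 0.117).

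The REG lectins, secreted proteins of which some act on bacteria, included members that differed widely between the DSS arrays. Reg3g read 13.49 and 13.15 in ileum, 4.80 and 5.06 in control colon and 12.75, 8.95 and 8.13 in DSS colon. KO DSS replicate 1 was within 1 log2 unit of the ileum and the other DSS arrays were far below, so the difference of -3.55 ± 1.17 was not called (adjusted p = 0.108), while the rise over control colon was at the threshold (4.84, adjusted p = 0.0499) and was called without KO DSS replicate 1 but under none of the 6 other omissions of an array (0.0609 to 0.323). Without KO DSS replicate 1, Reg3g was lower than in ileum (adjusted p = 8.05e-05), and so was Reg3b (2.63e-05). Reg3b showed the same pattern, with 12.85, 8.74 and 8.26 in DSS colon against 13.42 and 13.08 in ileum. Reg3a stayed at the colonic level, at 9.53 and 9.85 in ileum and 5.42, 5.0 and 5.15 in DSS colon (-4.52 ± 0.15, adjusted p = 2.32e-05). Over the 7 REG genes, 3 were lower, 0 were higher, 1 lay within 2-fold and 3 had wider intervals; 5 were lower without KO DSS replicate 1.

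Some genes with higher values in healthy ileum than in healthy colon, most of them on the defence lists, were not called different from ileum in DSS colon. The following were chosen after their values were seen. Nos2, inducible nitric oxide synthase, read 11.19 and 9.97 in ileum, 5.90 and 6.02 in control colon and 10.73, 11.73 and 11.55 in DSS colon. DSS colon and ileum overlapped, the difference was 0.84 with a 95% interval from -0.05 to 1.73 (adjusted p = 0.215), and the rise over control colon was 5.46 (adjusted p = 0.00128). Pla2g2a, the gene of a secreted phospholipase, is on the Paneth cell list. Only its transcript was measured, so the values do not show that working enzyme was made in these mice. Pla2g2a read 9.28 and 10.46 in ileum, 6.96 and 6.65 in control colon and 9.27, 10.31 and 10.55 in DSS colon. Its difference from ileum was 0.18, with an interval from -0.97 to 1.33, and it rose by 3.25 over control colon (adjusted p = 0.0126), a rise not called without either control colon array or the WT DSS array (0.0536 to 0.136). The sign of its small difference from ileum turned without the WT ileum array (-0.61) and without the WT DSS array (-0.30). Clca4b, a member of the calcium-activated chloride channel regulator family, read 12.59 and 12.66 in ileum, 7.01 and 8.28 in control colon and 11.49, 12.85 and 12.79 in DSS colon, a difference of -0.27 with an interval from -1.51 to 0.96 and a rise of 4.71 over control colon (adjusted p = 0.00498; 0.0571 without the WT control colon array). Without KO DSS replicate 1 its difference from ileum was 0.19. Clca4b is on the colon surface list and not on a defence list. The intervals of these 3 genes reach past 1 log2 unit, so the data do not show that the levels are equal. Duox2, which makes hydrogen peroxide at the epithelial surface, rose by 2.71 over control colon (adjusted p = 0.0139), and its 11.13, 11.73 and 11.43 in DSS colon stood beside 11.30 and 9.54 in ileum (1.11 ± 0.41, adjusted p = 0.148). With all arrays Duox2 was not called between ileum and control colon, so its higher level in healthy ileum is uncertain. Without the KO ileum array that difference was 2.47. Without the WT ileum array Duox2 was higher than in ileum (0.0167), and without the WT or the KO control colon array its rise was not called (0.124 and 0.0982).

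Further inducible defence genes were above the ileal level. Of 39 measured, 19 were higher than in ileum, 2 were lower, 11 lay within 2-fold and 7 had wider intervals, with a median of 1.11. Without the KO ileum array 11 were higher and 0 lower. Saa3, an acute-phase protein that carries retinol, read 6.94 and 6.29 in ileum, 6.13 and 6.40 in control colon and 11.04, 11.01 and 11.01 in DSS colon (4.43 ± 0.20, adjusted p = 6.68e-05). Saa3 was dim in both control tissues, and all 3 DSS arrays read alike. Ido1, an enzyme of tryptophan breakdown induced by interferon, read 8.48 and 9.19 in ileum, 5.67 and 5.94 in control colon and 11.31, 12.43 and 11.88 in DSS colon, so it began below the ileum and ended above it (2.99 ± 0.33, adjusted p = 0.00258). Retnlb, a goblet cell protein that disrupts bacterial membranes, read 6.42 and 4.63 in ileum, 8.87 and 6.35 in control colon and 12.03, 10.43 and 10.04 in DSS colon; its difference of 5.44 ± 0.88 (adjusted p = 0.0111) was not called without the KO ileum array (4.68, adjusted p = 0.137). Fut2, which adds fucose to surface glycans, and the membrane mucin Muc1 were higher by 3.49 ± 0.48 and 3.46 ± 0.24. The mucus lectin Zg16 lay within 2-fold (-0.07 ± 0.11), at 13.52 to 13.63 in DSS colon and 13.58 and 13.72 in ileum.

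**Figure D2:**
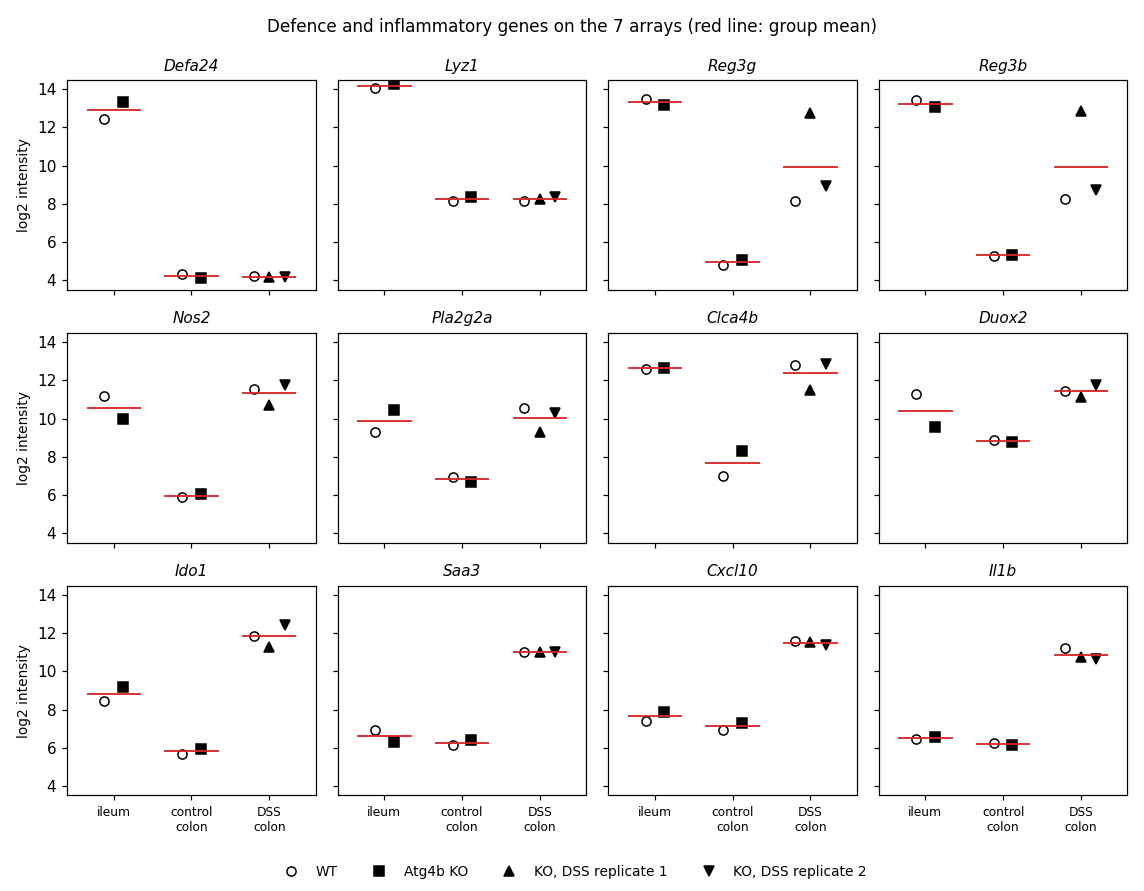
Log2 intensity (vertical axis) of 12 genes, mostly of defence and inflammation, in control ileum, control colon and DSS colon, with 1 marker per array (circle WT, square KO, upward triangle KO DSS replicate 1, downward triangle KO DSS replicate 2) and a red line at the group mean. Defa24 and Lyz1 in DSS colon stay with control colon, and Saa3, Cxcl10 and Il1b lie above both control tissues. Nos2 and Pla2g2a in DSS colon overlap the ileal range, and Clca4b lies below that range on KO DSS replicate 1 only.

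Interferon-response genes were the list with the largest share of higher members among the inflammatory lists described here. Of 33 measured, 27 were higher in DSS colon than in ileum, 0 were lower, 3 lay within 2-fold and 3 had wider intervals, and the median was 1.43. With any single array left out, 20 to 28 were higher. Against control colon 32 of the 33 were higher, with a median of 2.67 (21 without the KO control colon array), and the ileum itself exceeded control colon for 17, with a median of 0.75 (6 to 10 without any single ileum or control colon array). Cxcl10, a chemokine that attracts T cells, read 7.42 and 7.89 in ileum, 6.96 and 7.29 in control colon and 11.56, 11.37 and 11.61 in DSS colon (3.83 ± 0.17, adjusted p = 6.02e-05). All 3 DSS arrays stood more than 3 log2 units above all 4 control arrays. Iigp1, a GTPase that attacks the vacuoles of intracellular parasites, was higher by 3.69 ± 0.10, Ifit2, which restrains viral RNA translation, by 3.48 ± 0.15 and Oas2, a sensor of double-stranded RNA, by 2.69 ± 0.16. Ifi35 was within 2-fold of ileum at -0.04 ± 0.16 and had risen by 1.22 over control colon (adjusted p = 0.00886; 0.052 and 0.0967 without the WT and the KO control colon array, and 0.0528 without the WT DSS array). Ifi44l was the most uneven, at 10.03, 8.95 and 5.82 in DSS colon, with the WT array at the level of ileum (5.64 and 6.86), and it was not called (adjusted p = 0.226; 0.0178 without that array).

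GAAANNGAA is the core of the interferon-stimulated response element. Promoters on 1 chromosome were left out of the choice of sequences, so a list member with a larger difference may also hold it. Among the remaining members whose 250 bases before the gene start hold GAAANNGAA, the 3 with the largest differences are shown. Cxcl10 lies on chr5:92348890-92349139 (minus strand) with the match starting 213 bases before the gene, Cd274, the checkpoint ligand PD-L1, on chr19:29367188-29367437 (plus strand) with the match at 76, and Gbp7, a guanylate-binding protein, on chr3:142530086-142530335 (plus strand) with the match at 52. Coordinates are those of GRCm38.p6, sequences run 5′ to 3′ on the gene's strand, both strands were searched and the match is in capitals.
Cxcl10: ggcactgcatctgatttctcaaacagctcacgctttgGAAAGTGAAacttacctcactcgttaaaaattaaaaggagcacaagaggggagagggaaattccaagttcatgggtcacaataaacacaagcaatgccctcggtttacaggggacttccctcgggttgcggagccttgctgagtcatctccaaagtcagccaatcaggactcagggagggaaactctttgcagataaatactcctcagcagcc
Cd274: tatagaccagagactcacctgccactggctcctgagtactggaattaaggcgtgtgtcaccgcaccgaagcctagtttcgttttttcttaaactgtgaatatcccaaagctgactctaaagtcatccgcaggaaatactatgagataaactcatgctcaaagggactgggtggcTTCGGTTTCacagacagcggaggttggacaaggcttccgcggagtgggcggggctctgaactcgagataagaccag
Gbp7: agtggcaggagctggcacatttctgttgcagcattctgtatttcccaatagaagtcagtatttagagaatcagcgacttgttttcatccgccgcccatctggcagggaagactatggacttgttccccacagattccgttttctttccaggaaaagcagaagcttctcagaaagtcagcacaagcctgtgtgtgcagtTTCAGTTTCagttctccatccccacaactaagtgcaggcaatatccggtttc
Cd274 and Gbp7 were chosen by this match after the values were seen. Cd274 read 8.07 and 8.14 in ileum, 7.67 and 7.89 in control colon and 10.46, 10.50 and 10.74 in DSS colon (2.47 ± 0.13), and Gbp7 was higher by 2.25 ± 0.21. The motif was held by 14 of the 24 interferon-list genes with a promoter in the table, which is 58.3%, beside 7.13% of all promoters of that length. It was held by 0 of 26 fat absorption genes, 0 of 14 bile acid genes, 5 of 26 brush-border genes, 1 of 36 nutrient carriers, 1 of 28 inducible defence genes and 1 of 27 colon surface genes. A gene without the letters in this window may carry them elsewhere.

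Some cytokines, neutrophil genes and macrophage genes were also above the ileal level. Of 48 cytokines and chemokines, 23 were higher, 2 were lower, 18 lay within 2-fold and 5 had wider intervals; 15 were higher without the KO ileum array. Il1b, the inflammasome product interleukin 1 beta, read 6.46 and 6.57 in ileum, 6.24 and 6.13 in control colon and 10.77, 10.64 and 11.25 in DSS colon (4.40 ± 0.17, adjusted p = 3.41e-05). Il1a and the neutrophil chemokine Cxcl2 were higher by 3.93 ± 0.51 and 3.73 ± 0.27. Cxcl9, chosen after its values were seen, passed from below the ileum to above it, with 9.34 and 9.70 in ileum, 6.34 and 7.00 in control colon and 11.58, 11.77 and 12.01 in DSS colon (2.24 ± 0.23, adjusted p = 0.00174). The 2 lower genes were Ccl25 and Il15 (-1.24 ± 0.14, adjusted p = 0.00312; 0.0503 without the KO ileum array), and 4 were lower without KO DSS replicate 1. Ccl25, which draws CCR9-bearing lymphocytes to the small intestine, read 11.91 and 12.15 in ileum, 6.33 and 6.59 in control colon and 6.50, 6.41 and 6.20 in DSS colon (-5.70 ± 0.10, adjusted p = 1.46e-06).

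Of 25 neutrophil genes, 14 were higher, 0 were lower, 9 lay within 2-fold and 2 had wider intervals. S100a9, a calcium-binding protein abundant in neutrophils, read 6.36 and 6.01 in ileum, 6.14 and 6.96 in control colon and 8.97, 9.06 and 9.43 in DSS colon (2.97 ± 0.28), and the receptor Clec4e was higher by 3.61 ± 0.40. The granule protease genes Elane and Ctsg, made by immature neutrophils in bone marrow, were within 2-fold at 0.04 ± 0.11 and -0.02 ± 0.15. Ly6g, a surface marker of neutrophils that is also on the colon surface list, did not follow S100a9: it read 12.50 and 12.48 in control colon against 12.58, 12.85 and 13.12 in DSS colon and 5.11 and 4.95 in ileum. Its difference from ileum, 7.85 ± 0.14 (adjusted p = 1.46e-06), stood beside one of -7.46 for ileum minus control colon. Its difference from control colon, 0.39, was called only without KO DSS replicate 1 (adjusted p = 0.0355; 0.129 with all arrays). Of 27 macrophage genes, 7 were higher, 2 were lower, 12 lay within 2-fold and 6 had wider intervals; 1 was higher without the WT ileum array, and 3 without the KO ileum array or the WT DSS array, while 4 were lower without the WT ileum array and 0 without the KO ileum array. Acod1, which makes itaconate in activated macrophages, read 6.20 and 6.03 in ileum, 6.04 and 6.27 in control colon and 10.52, 10.10 and 11.05 in DSS colon (4.49 ± 0.24, adjusted p = 0.000123), while the resident-macrophage receptor Cx3cr1 was lower by -0.75 ± 0.11 (adjusted p = 0.00769; 0.108 without the KO ileum array).

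Some T cell and plasma cell genes were lower in DSS colon than in ileum. The 26 B cell and plasma cell markers went both ways, with a median difference of 0.62. Of 43 genes of T cells, natural killer cells and intraepithelial lymphocytes, 14 were lower than in ileum, 1 was higher, 24 lay within 2-fold and 4 had wider intervals. Gzmb, granzyme B, read 8.76 and 9.09 in ileum, 6.20 and 5.95 in control colon and 6.37, 6.57 and 6.59 in DSS colon (-2.41 ± 0.15, adjusted p = 0.000274). Ccr9, the receptor for Ccl25, was lower by -2.29 ± 0.24 and the T cell receptor subunit Cd3g by -2.13 ± 0.33. Ccl5 was uneven, at 9.15, 9.46 and 10.70 in DSS colon against 10.91 and 10.81 in ileum, with a rise of 1.76 over control colon (adjusted p = 0.022; 0.0594 to 0.157 without either control colon array or KO DSS replicate 2). Its difference from ileum, -0.98 ± 0.32, was not called (adjusted p = 0.102; 0.00656 without the WT DSS array). Among B cell and plasma cell markers, 8 of the 26 measured exceeded ileum, 5 were lower, 8 lay within 2-fold and 5 had wider intervals, but without either ileum array 1 was higher, without KO DSS replicate 2 it was 4, without KO DSS replicate 1 it was 13 and without the WT DSS array 5, and without the KO ileum array 3 were lower. Jchain, which joins polymeric immunoglobulins, read 12.42 and 12.33 in ileum, 11.11 and 11.46 in control colon and 9.99, 10.12 and 9.50 in DSS colon, below both control tissues (-2.55 ± 0.16 against ileum; it fell by 1.46 against control colon, adjusted p = 0.00507, and 0.067 and 0.078 without the WT and the KO control colon array). The plasma cell receptor Tnfrsf17 was lower by -2.07 ± 0.11, whereas Blnk, a B cell signalling adaptor, was higher by 1.98 ± 0.16. Of 17 follicle and M cell genes, some of them also B cell markers, 9 were higher and 0 were lower, beside 6.31% higher over all genes. A further 6 lay within 2-fold and 2 had wider intervals. Their counts with single arrays left out are not given here. Of 10 genes of MHC class II presentation, 1 was higher, 2 were lower, 4 lay within 2-fold and 3 had wider intervals; 0 were lower without either ileum array, either control colon array or KO DSS replicate 2. Against control colon 6 of the 10 had risen, but 0 without either control colon array or the WT DSS array; omitting KO DSS replicate 2 left 2. Ciita, their master regulator, read 8.15 and 8.86 in ileum, 7.36 and 7.53 in control colon and 8.38, 8.77 and 8.71 in DSS colon, within 2-fold of ileum (0.08 ± 0.21) after a rise of 1.14 over control colon (adjusted p = 0.0245; 0.075 to 0.183 without either control colon array, KO DSS replicate 2 or the WT DSS array).

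**Figure D3:**
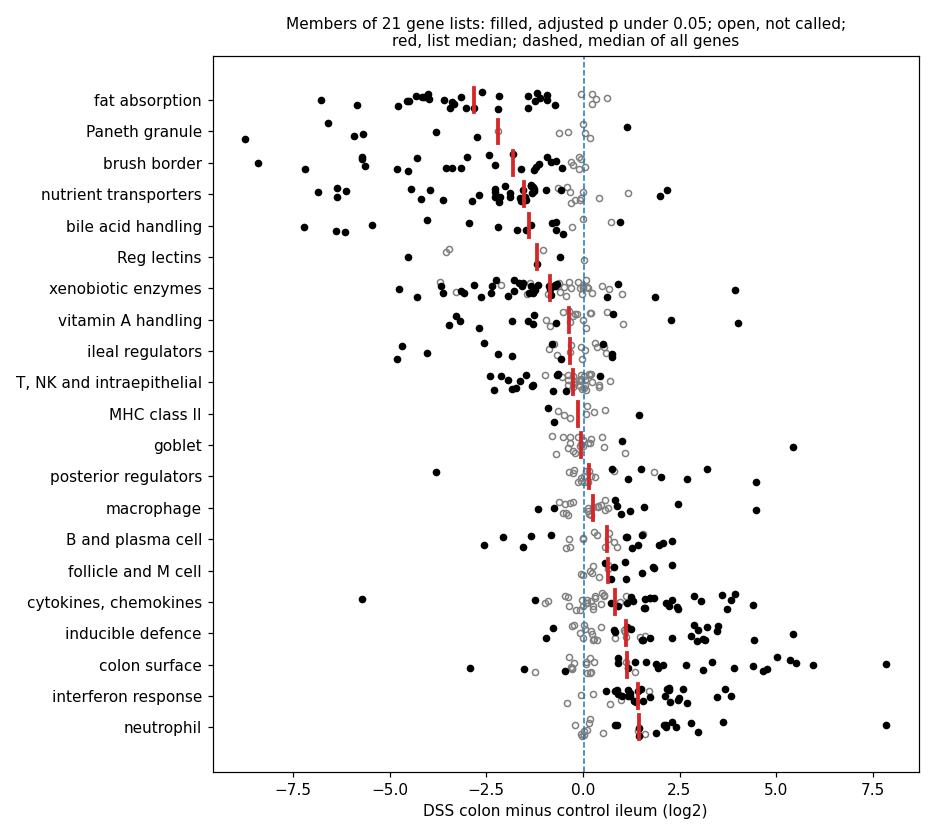
DSS colon minus control ileum (horizontal axis, log2) for the genes of 21 lists, 1 point per measured gene (filled, called; open, not called), with a red bar at the median of each list and a dashed line at the median of all genes. The medians of fat absorption (-2.81) and brush-border genes (-1.81) lie to the left of 0, those of interferon response (1.43) and neutrophils (1.44) to the right.

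Many genes typical of the colon surface remained above ileum. Of 38 colon surface genes, 20 were higher in DSS colon than in ileum, 3 were lower, 10 lay within 2-fold and 5 had wider intervals, with a median of 1.15. Without the KO ileum array 12 were higher, and 1 was lower without any array but KO DSS replicate 1. In the same list 15 genes were lower in DSS than in control colon and 5 higher, with a median of -0.59; without the WT control colon array the counts were 4 and 0, and without the KO control colon array 4 and 1, and 2 were higher without KO DSS replicate 2 or the WT DSS array. B3galt5, a glycosyltransferase, read 6.35 and 6.09 in ileum, 11.50 and 11.55 in control colon and 12.13, 12.21 and 12.17 in DSS colon (5.96 ± 0.11, adjusted p = 2.08e-06). Aqp8, a water channel of surface colonocytes, read 6.16 and 5.75 in ileum, 12.05 and 11.83 in control colon and between 10.68 and 11.14 in DSS colon, a difference of 5.02 ± 0.16 (adjusted p = 1.97e-05) beside -0.96 against control colon (adjusted p = 0.0183, lost without either control colon array, KO DSS replicate 2 or the WT DSS array, at 0.0541 to 0.146). The carbonic anhydrases Car1 and Car2, which supply protons and bicarbonate for salt uptake, were higher than in ileum by 5.35 ± 0.53 and 4.76 ± 0.23. Tgm3, a transglutaminase, and Atp12a, the colonic proton-potassium pump, read 10.03 and 8.48 on KO DSS replicate 1 against 11.82 and 12.08, and 11.27 and 11.30, on the other DSS arrays. Atp12a was higher by 4.67 ± 0.81 (adjusted p = 0.0139) and was not called without either ileum array or the WT DSS array (0.0661 to 0.124).

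Some genes that mark healthy colon fell towards the ileal level. Ttr, transthyretin, which carries thyroxine and retinol-binding protein, read 7.13 and 7.54 in ileum, 10.36 and 10.54 in control colon and 7.66, 7.74 and 7.10 in DSS colon. It fell by 3.02 against control colon (adjusted p = 0.000212) and lay within 2-fold of ileum (0.09 ± 0.13). The next genes were chosen after their values were seen. Mptx1, a mucosal pentraxin, read 7.44 and 6.64 in ileum, 12.68 and 11.72 in control colon and 7.56, 5.84 and 8.07 in DSS colon, so it fell by 4.86 (adjusted p = 0.00341; 0.057 and 0.0674 without the WT and the KO control colon array) and spread over more than 2 log2 units between the DSS arrays. Its difference from ileum, 0.29 ± 0.47, was not called with all arrays and was without KO DSS replicate 2 (adjusted p = 0.0401). Cyp2f2, a cytochrome P450, fell by 3.41 (adjusted p = 0.000578) to 7.30, 6.93 and 7.13, beside 6.50 and 6.45 in ileum (0.68 ± 0.19, adjusted p = 0.0659). Slc37a2, a sugar phosphate carrier, fell by 3.35 to 6.63, 7.70 and 8.08, beside 6.17 and 6.18 in ileum (1.36 ± 0.36, adjusted p = 0.0558; 0.000495 without KO DSS replicate 1). That fall was not called without the WT or the KO control colon array (0.057 and 0.0805).

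Some transcription factors of position remained different from ileum. Of 23 posterior regulators, 7 were higher than in ileum, 1 was lower, 13 lay within 2-fold and 2 had wider intervals. Hoxa13 read 5.87 and 6.28 in ileum, 9.67 and 9.62 in control colon and 9.30, 9.23 and 9.34 in DSS colon (3.21 ± 0.14, adjusted p = 6.4e-05), not called different from control colon (adjusted p = 0.155). Hoxb13 read 5.55 and 5.40 in ileum, 11.13 and 11.07 in control colon and 8.59, 10.50 and 10.54 in DSS colon (4.48 ± 0.54, adjusted p = 0.00344). Hoxd13 was spread widest, at 6.64, 8.19 and 9.12 in DSS colon against 6.27 and 6.29 in ileum and 10.31 and 9.89 in control colon, and was not called against either tissue (adjusted p = 0.077 and 0.0688; 0.000761 and 0.00695 without KO DSS replicate 1). Its neighbour Hoxd10, chosen after its values were seen, fell by 2.35 against control colon (adjusted p = 0.00852), from 9.63 and 8.86 to 6.58, 7.37 and 6.68, near the 6.13 and 6.04 of ileum, a fall not called without the WT or the KO control colon array (0.0857 and 0.0555). KO DSS replicate 1 was the lowest DSS array for Hoxb13, Hoxd13 and Hoxd10. Hoxc8, the lower member, read 9.47 and 10.13 in ileum and 5.86 to 6.19 in DSS colon (-3.80 ± 0.21).

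Of 23 regulators of ileal fate, 8 were lower, 3 were higher, 8 lay within 2-fold and 4 had wider intervals; without the WT ileum array 5 were lower and 1 higher, and without the KO ileum array 5 and 0, with 1 higher also without KO DSS replicate 2 or the WT DSS array. Gata5 read 11.19 and 11.27 in ileum, 6.44 and 7.04 in control colon and 6.86, 6.57 and 6.36 in DSS colon (-4.69 ± 0.15, adjusted p = 1.98e-05). Osr2 was lower by -4.80 ± 0.16, Maf by -4.02 ± 0.19 and Hnf4g, a nuclear receptor of enterocytes, by -2.56 ± 0.14. None of these 4 was called between DSS and control colon. Isx, described above, is on the same list.

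**Figure D4:**
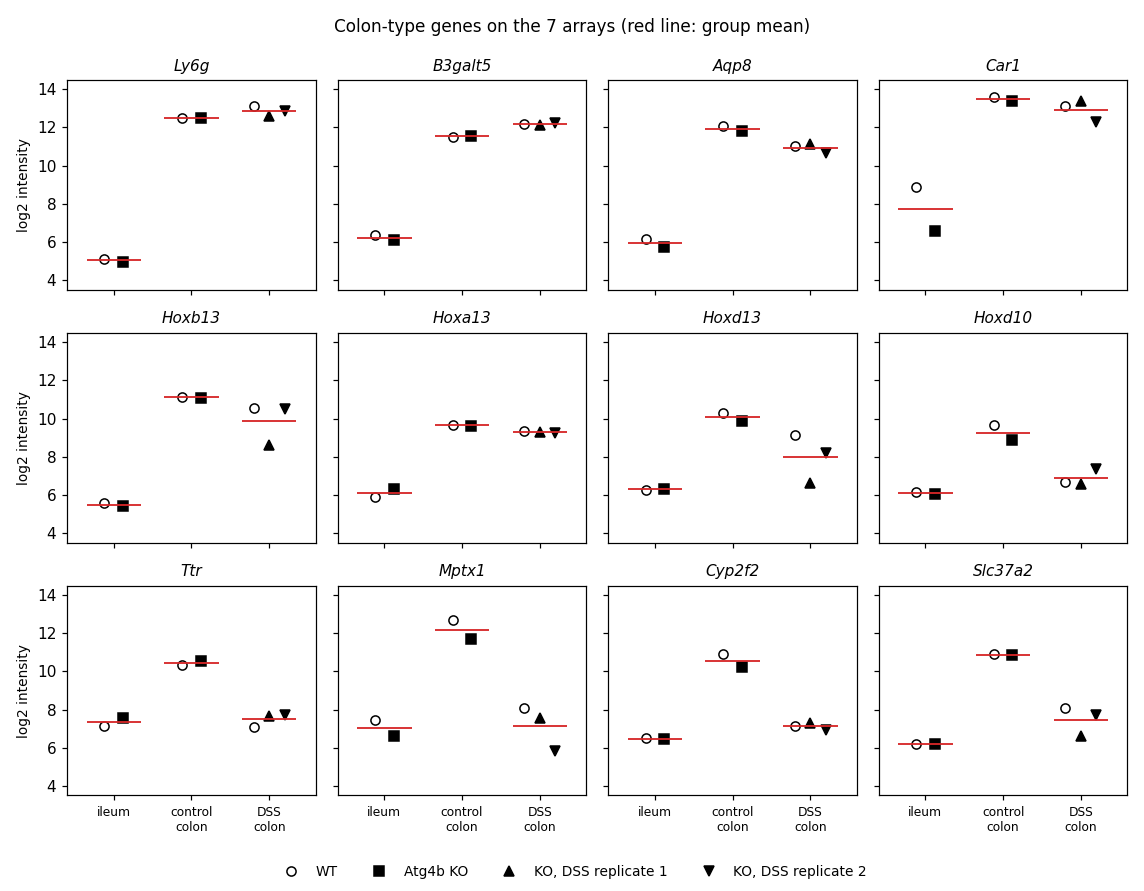
Log2 intensity (vertical axis) of 12 genes that separate healthy ileum and colon, in control ileum, control colon and DSS colon, with 1 marker per array (circle WT, square KO, upward triangle KO DSS replicate 1, downward triangle KO DSS replicate 2) and a red line at the group mean. Ly6g, B3galt5, Aqp8 and Hoxa13 in DSS colon stay near control colon, whereas Ttr, Mptx1, Cyp2f2 and Hoxd10 lie near ileum.

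Many enzymes that clear drugs and other foreign compounds were lower in DSS colon than in ileum, and some also lower than in control colon. Of 59 measured, 28 were lower than in ileum, 4 were higher, 13 lay within 2-fold and 14 had wider intervals, and 20 were lower than in control colon with 0 higher. The 28 became 14 without the KO ileum array, and the 4 became 2 without either ileum array or the WT DSS array. The 20 became 3 and 7 without the WT and the KO control colon array, 13 without KO DSS replicate 2 and 8 without the WT DSS array. Fmo4 and Fmo5, flavin monooxygenases, were lower than in ileum by -3.66 ± 0.18 and -3.61 ± 0.24 and fell by 1.70 and 1.52 against control colon (adjusted p = 0.00458 and 0.0154). These falls were not called without the WT control colon array (0.057 and 0.0726) and, for Fmo5, without the WT DSS array (0.0793). Cyp3a25 read 9.30 and 10.01 in ileum, 5.04 and 5.38 in control colon and 4.71, 5.07 and 5.05 in DSS colon (-4.75 ± 0.21). Cyp2d34 was higher than in ileum, at 6.06 and 5.42 in ileum and 9.33, 9.79 and 9.71 in DSS colon (3.92 ± 0.18). Cyp2c55 read 9.69 on KO DSS replicate 1 and 4.78 and 4.81 on the others, beside 10.68 on the WT control colon array, and Cyp2c65, chosen after its values were seen, read 9.72, 5.34 and 5.31. Neither was called against ileum (adjusted p = 0.626 and 0.12), but both were lower without KO DSS replicate 1 (0.00604 and 0.00035).

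Of 26 vitamin A genes, 9 were lower, 3 were higher, 9 lay within 2-fold and 5 had wider intervals; 5 were lower without the KO ileum array. Dhrs9, a retinol dehydrogenase, read 6.91 and 7.72 in ileum, 7.21 and 7.69 in control colon and 11.48, 11.33 and 11.39 in DSS colon (4.02 ± 0.19, adjusted p = 7.37e-05), above every control array. Lrat, which esterifies retinol, and Rbp2, which binds it in enterocytes, were lower by -3.27 ± 0.28 and -3.18 ± 0.42, and Rbp2 also fell by 1.90 against control colon (adjusted p = 0.0391; 0.0593 to 0.232 without either control colon array, KO DSS replicate 2 or the WT DSS array).

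Markers of secretory and crypt cells were divided between called and uncalled genes. Of 21 goblet cell genes, 2 were higher, 0 were lower, 10 lay within 2-fold and 9 had wider intervals, and Muc2, the gel-forming mucin of the intestine, read 13.65 and 13.57 in ileum and 13.88, 13.59 and 13.38 in DSS colon. Of 21 tuft cell genes, 7 were lower, 1 was higher, 10 lay within 2-fold and 3 had wider intervals; 1 or 2 were lower without either ileum array, KO DSS replicate 2 or the WT DSS array; omitting KO DSS replicate 1 gave 13. Of 29 enteroendocrine genes, 5 were lower, 2 were higher, 18 lay within 2-fold and 4 had wider intervals; without the WT or the KO ileum array 3 or 2 were lower and 1 higher, without either control colon array 8 were lower, and without the WT DSS array 1 was higher. Among the called hormones, neurotensin (Nts) read 8.51 and 9.09 in ileum and 4.57 to 4.78 in DSS colon (-4.19 ± 0.15), while Insl5, a peptide of colonic L cells, read 7.07 and 7.48 in ileum and 9.94, 11.35 and 11.17 in DSS colon (3.54 ± 0.43). Of 25 crypt genes, 5 were lower, 3 were higher, 14 lay within 2-fold and 3 had wider intervals; 2 were lower without the KO ileum array, 3 without KO DSS replicate 2 or the WT DSS array; omitting KO DSS replicate 1 gave 8. Olfm4, a marker of small intestinal stem cells in mice, read 11.52 and 12.22 in ileum, 5.61 and 5.90 in control colon and 6.05, 6.08 and 5.60 in DSS colon (-6.04 ± 0.12, adjusted p = 2.24e-06). Anxa1, a mediator of resolution and repair, was higher by 3.18 ± 0.27.

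Among 26 genes of tissue remodelling, 8 were higher, 1 was lower, 13 lay within 2-fold and 4 had wider intervals; 5 were higher without either ileum array, and 4 were lower without KO DSS replicate 1. The collagenase Mmp13 read 7.07 and 7.66 in ileum, 6.51 and 6.44 in control colon and 9.78, 9.74 and 10.23 in DSS colon (2.55 ± 0.23), and its inhibitor Timp1 was higher by 2.05 ± 0.19. Of 27 genes of oxidative phosphorylation, all 27 lay within 2-fold. Over all genes that share was 81.8%, with 6.31% higher and 7.02% lower. Of 31 cell cycle genes, 2 were higher than in ileum, 0 were lower, 21 lay within 2-fold and 8 had wider intervals, and 17 exceeded control colon. Without KO DSS replicate 1, 16 were higher than in ileum, and without either ileum array, KO DSS replicate 2 or the WT DSS array 0 were. The 17 became 0 and 1 without the WT and the KO control colon array, 1 without the WT DSS array, 3 without KO DSS replicate 2 and 9 without either ileum array.

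Markers of muscle moved with the arrays as well as with the groups. The mean log2 value of 18 smooth muscle genes was 10.41 and 10.23 in ileum, 10.80 and 10.75 in control colon and 10.27, 9.43 and 8.97 in DSS colon, and 7 of the 18 were more than 1 log2 unit higher on KO DSS replicate 1 than on both other DSS arrays. Against ileum, 1 was lower, 0 were higher, 2 lay within 2-fold and 15 had wider intervals; without KO DSS replicate 1, 15 were lower. Their summed intensity ran from 33750 to 38147 in ileum and from 13691 to 35869 in DSS colon. On the same array, 3 of 33 fat absorption genes and 4 of 29 brush-border genes stood more than 1 log2 unit above both other DSS arrays. So did 3 of 44 nutrient carriers, 7 of 59 drug enzymes and 2 of 7 REG genes, while 1 nutrient carrier stood more than 1 below. Of 38 colon surface genes, 5 stood more than 1 below and 2 more than 1 above. The share over all genes was not counted, so these counts and that of muscle genes do not show that a list is unusual on this array. The part of muscle content, or of this single array, in the differences was not tested. The counts that follow stand beside shares over all genes of 81.8% within 2-fold, 6.31% higher and 7.02% lower. On every array, 6 of the 17 acinar genes and 7 of the 23 squamous genes read below the lower quartile of all gene values. Of the endothelial markers, 3 of 18 were lower and 12 lay within 2-fold (1 lower without KO DSS replicate 2, and 0 without the KO ileum array or the WT DSS array), and of 22 markers of enteric neurons and glia 1 was lower and 17 lay within 2-fold. Of 17 genes of pancreatic acinar cells 14 lay within 2-fold, 1 was higher and 2 were lower (0 or 1 lower without the KO ileum array, either control colon array or KO DSS replicate 2). Of 23 squamous epithelial genes 4 were higher, 0 were lower and 19 lay within 2-fold; 1 was higher without either ileum array or the WT DSS array.

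**Figure D5:**
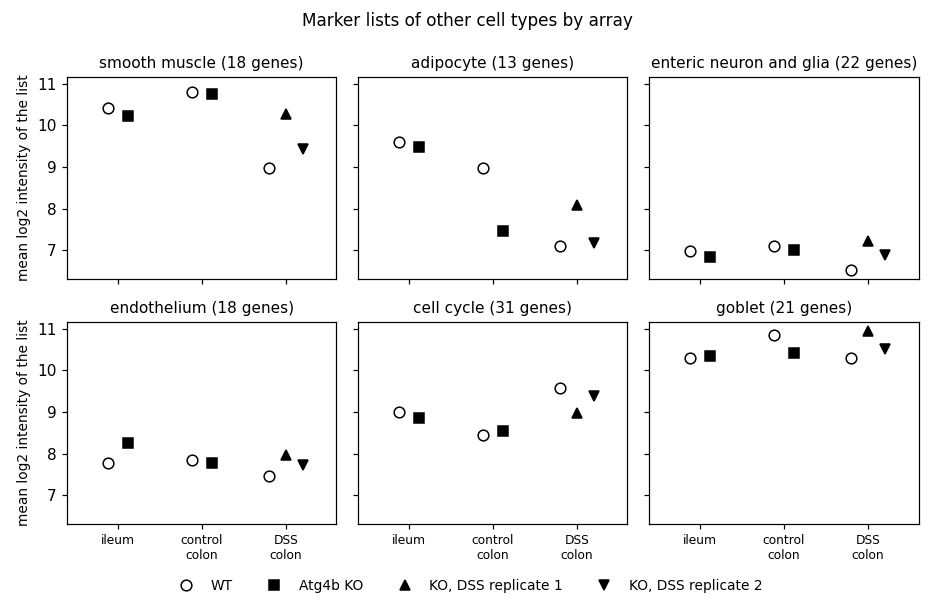
Mean log2 intensity of 6 marker lists (vertical axis) on each array of control ileum, control colon and DSS colon, with 1 marker per array (circle WT, square KO, upward triangle KO DSS replicate 1, downward triangle KO DSS replicate 2). Smooth muscle markers fall from 10.27 on KO DSS replicate 1 to 8.97 on the WT DSS array, and adipocyte markers are highest in ileum.

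The difference between DSS colon and ileum was also compared between genotypes. By limma's interaction term, with 6 separate groups and Benjamini-Hochberg adjustment, 0 genes were called, the smallest adjusted p was 0.511, and 503 genes had an unadjusted p under 0.05. With the 5 arrays alone the count was also 0. This fit has few degrees of freedom, so a genotype effect on single genes may be missed.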

How the data were processed

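Total RNA from 7 tissue samples was labelled and hybridised to Affymetrix gene arrays, per the labels' protocols. The table as deposited holds 1 linear intensity per probe set and array, between 10.4 and 22236.4, and neither the authors' summarisation and normalization nor a detection call is given in the sources used here, so a fold is one of deposited intensities. The intensities were taken to log2 and not scaled further. Of 35512 probe sets, 21789 had 1 gene symbol in the platform annotation, 1621 had several and 12102 none; 999 genes had several probe sets, of which the one with the highest mean was kept, leaving 19938 genes.

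Differences, standard errors and 95% intervals came from lmFit and eBayes in limma 3.58.1 (R 4.3.3), fitted to all 7 arrays with condition and genotype and adjusted by Benjamini-Hochberg with a threshold of 0.05. The fit was tested on simulated data. The members and gene lists were chosen with earlier results of these data known, so lists are described by counts and medians only. Genes named are the 10 largest called differences each way whose arrays do not overlap and whose higher mean exceeds the median of all values (7.33) (predicted loci, short non-coding RNAs, antigen receptor segments and sex-linked markers were not eligible), and, in each list, up to 4 called members each way, up to 4 within 2-fold and the one with the widest spread in DSS colon. Not every gene that the rule allows is printed, and others are marked as chosen after their values were seen. Alternatives covered scaling, dim genes, probe sets, the variance model, covariates, the arrays fitted and each array left out; leaving out arrays in the comparisons with control colon was added after seeing the data. Group sizes of 2 and 3 arrays limit the precision. Tables and plots used Python 3.11.15, pandas 2.3.3, numpy 2.4.6 and matplotlib 3.10.9.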

Additional observations from a re-analysis of the deposited data

Results flagged for a closer look

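In 8 of the genes examined, the WT pair of arrays moved one way between ileum and DSS colon and both KO arrays of DSS colon moved the opposite way from the KO ileum. The difference of the changes, KO minus WT, was tested with limma's interaction term, and none passed the threshold after adjustment over all genes. WT ileum, KO ileum and WT DSS colon hold 1 array each, so the spread in this test rests on the 2 KO DSS arrays and the moderation across genes. St3gal4, a sialyltransferase on the goblet cell list, had the widest gap: it read 7.34 in WT ileum and 12.47 in KO ileum, 10.24 and 9.77 in control colon and 10.08, 10.33 and 10.36 in DSS colon, so the change was 3.02 in WT and -2.40 and -2.15 in KO, a difference of -5.30 ± 0.28 (SE; adjusted p = 0.652). St3gal4 was chosen after its values were seen, and its 5 colon arrays lay between 9.77 and 10.36 while the 2 ileum arrays lay on either side.

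For Pla2g2a the difference was -1.94 ± 0.74 (adjusted p = 0.999), with changes of 1.27 in WT and -1.19 and -0.15 in KO. For Ciita it was -0.85 and for Ifi35 -0.41. The other values were close to 0: 0.43 for Muc2, 0.19 for Ttr, -0.18 for Zg16 and 0.14 for Atg4b, each with an adjusted p of 0.999.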

How the results depend on the processing

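The 2658 genes called in DSS colon against control ileum became 1232 with 6 separate groups (520 higher, 712 lower) and 330 when tested against a 2-fold change (123 higher, 207 lower), and stayed within 1.5 times under the 9 other settings that kept all arrays or dropped both control colons. With single arrays left out they ranged from 820 to 3696, the higher genes from 396 to 1792 and the lower from 424 to 1904. Without either control colon array the fit is that of the 5 arrays alone by construction. Pla2g2a ranged from -0.61 to 1.14 and Clca4b from -0.79 to 0.19 with single arrays left out, reversing as given above. For the 20 genes with the largest differences, 351 of 360 values under alternatives kept direction and call and 9 lost the call, all of Retnlb or Atp12a. Of 204 list medians under alternatives 195 moved by less than the spread of DSS arrays, 9 moved further and 0 changed sign. Labelled sex as a covariate was among the settings; the sex shown by the marker genes cannot be fitted, since it coincides with the comparison. No paired analysis was made, because the labels do not say which arrays, if any, come from the same animal.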
